A study of Homo sapiens with 7 samples.

Results

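Of the 30840 regions listed for H3K4me3 in HCT116, a cell line from a human colon cancer, 1223 lay on the autosomes and were 4000 bp wide or more (3.97% of all regions). These broad domains were chosen by the end minus the start in the authors' list of regions, without a threshold on RPM. How that list was called is not stated, so the widths may themselves depend on the level of H3K4me3. Starts in the list were read as counted from 0, the BED convention, and are printed here counted from 1, so a width is the printed end minus the printed start plus 1. Together they covered 6.22 Mb of hg19, 12.6% of the listed length. A further 30 regions of this width on the sex chromosomes were left out. The 9028 autosomal regions of 2 to 4 kb were used for comparison.

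All cells carried a knockout of both copies of KDM5A (KDM5A-/-), a lysine demethylase that removes methyl groups from lysine 4 of histone H3. The line was kept in G418, a selection drug, and was transfected with mutant KDM5A, with wild-type KDM5A or with an empty vector, and cells were fixed 24 h later. Which residues the mutant changes, what share of cells took up each plasmid and whether the knockout line is a single clone are not stated in the labels. Each transfection gave 1 H3K4me3 ChIP-seq library, so every difference below lacks a replicate check and carries no p-value. Ratios between libraries are called mutant-to-vector, wild-type-to-vector and mutant-to-wild-type ratios, and the interval given with a ratio covers counting error only.

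H3K4me3 is placed around active promoters by methyltransferase complexes of the COMPASS family and is removed by the KDM5 demethylases. At most promoters it covers a short stretch around the transcription start, where it sits on the first nucleosomes of the gene. Unusually wide H3K4me3 domains have been described in many cell types, often at genes that define a cell's identity or at tumour suppressor genes. No gene annotation of hg19 was used here, so the domains are named by chromosome, start and end, and whether particular genes start in them was not analysed. Markers of colon epithelium or of other cell types could for the same reason not be looked up, and ChIP reads give no expression level of KDM5A.

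The libraries held 9906507 reads for mutant KDM5A, 10852411 for wild-type KDM5A and 10713020 for the empty vector. Values are in RPM, which sets each library total to 1000000 reads, and levels are compared between regions as RPM per kb of region width. A value of 3 reads, taken as the floor of detection, equals 0.303, 0.276 and 0.280 RPM in the same order, and every listed broad domain lay far above it. A domain missing from the authors' list could not be seen here. The median RPM of the broad domains was 70.2 with mutant KDM5A, 74.7 with wild-type KDM5A and 83.5 with the empty vector.

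Broad domains were wide rather than dense. Their median density was 14.2 RPM per kb with mutant KDM5A (quartiles 10.9 and 17.5), 15.3 with wild-type KDM5A (11.8 and 18.7) and 17.3 with the empty vector (13.1 and 21.1). Regions of 2 to 4 kb had medians of 15.8, 16.9 and 18.7 RPM per kb in the same order. In each library the broad domains were therefore slightly below the regions of 2 to 4 kb, and both classes stood well above the autosomal regions under 2 kb, whose medians were 2.97, 3.0 and 3.0 RPM per kb.

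**Figure D1:**
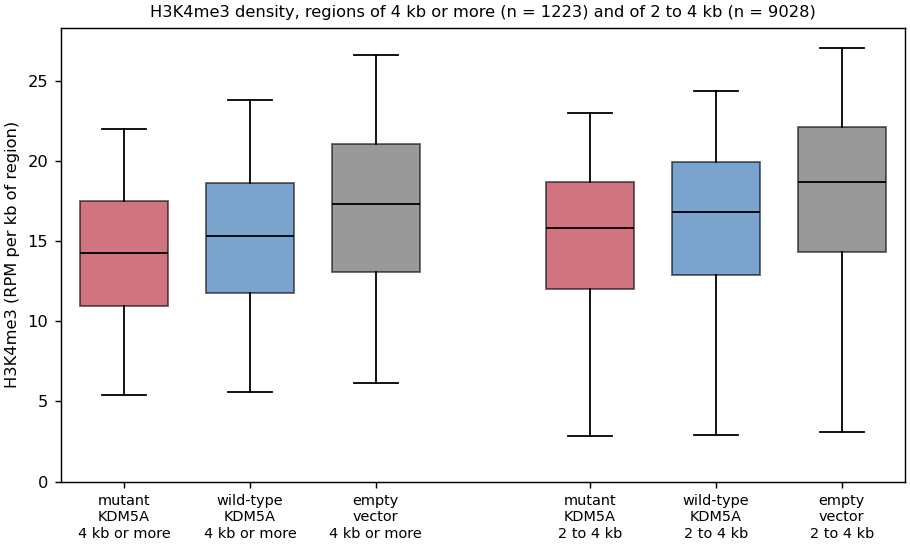
H3K4me3 density in RPM per kb (y axis) for the 3 libraries (x axis) in regions of 4 kb or more (left) and of 2 to 4 kb (right). Boxes give quartiles and median, whiskers the 5th and 95th percentiles of regions; in both width classes the mutant KDM5A library is lowest and the empty vector library highest.

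The width of the domains ran from 4001 to 17696 bp, with a median of 4664 bp and quartiles of 4263.5 and 5426 bp. Most were close to the limit: 779 were under 5 kb wide, 245 were of 5 to 6 kb, 158 of 6 to 8 kb and 41 of 8 kb or more. Wider domains were less dense: the median of the mean density over the 3 libraries was 16.5 RPM per kb in domains under 5 kb, and 14.5, 13.4 and 13.3 RPM per kb in the successively wider classes. Across the 1223 domains Spearman's rho between width and density was −0.20, and between width and mean RPM it was 0.30, as a description over regions that share the same 3 libraries. Density is RPM divided by the width that the authors' regions give, so the pair is not independent.

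The limit of 4000 bp cut through a continuous range of widths. Just inside it, the domain at chromosome 3, 196227288 to 196231288 (4001 bp), had 15.0 RPM per kb with mutant KDM5A, 16.0 with wild-type KDM5A and 17.8 with the empty vector. Just outside it, the region at chromosome 4, 83930883 to 83934881 (1 bp under the limit), had 15.2, 17.5 and 17.8 RPM per kb in the same order. The other regions next to the limit also spread widely in level, with mean densities of 9.37 and 14.4 RPM per kb just inside and of 4.19 and 21.6 RPM per kb just outside.

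The widest domain, at chromosome 7, 27199702 to 27217397, spanned 17696 bp. It held 184 RPM (1818 reads) with mutant KDM5A, 208 RPM (2258 reads) with wild-type KDM5A and 254 RPM (2725 reads) with the empty vector. It was 1.39-fold lower with mutant KDM5A than with the empty vector (95% interval 1.31 to 1.47) and 1.22-fold lower with wild-type KDM5A than with the empty vector (1.16 to 1.29). By density it was only number 909 of 1223, at a mean of 12.2 RPM per kb.

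The second widest domain, at chromosome 1, 156083465 to 156100062 (16598 bp), differed much less between libraries, with 119 RPM for mutant KDM5A, 122 for wild-type KDM5A and 129 for the empty vector. Its wild-type-to-vector ratio was 0.947, with an interval that includes 1 (0.878 to 1.02), and that of mutant KDM5A was 0.921 (0.852 to 0.996). Over all broad domains the summed ratios were 0.891 with wild-type KDM5A, within the first interval, and 0.833 with mutant KDM5A, below the second. The third widest, at chromosome 22, 46462011 to 46478214 (16204 bp), had 148 RPM with mutant KDM5A, 170 with wild-type KDM5A and 195 with the empty vector. These domains are comparable in width, yet their ratios to the empty vector ranged from near 1 to well below it.

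Chromosome 17 held 4 of the 10 widest domains. That at 27043792 to 27056569 (12778 bp) had 135 RPM with mutant KDM5A, 139 with wild-type KDM5A and 163 with the empty vector, and that at 48129790 to 48142530 (12741 bp) had 135, 144 and 150 RPM in the same order. The domain at 7736794 to 7749214 (12421 bp) was denser, with 13.8 RPM per kb for mutant KDM5A, 16.1 for wild-type KDM5A and 18.2 for the empty vector. At 75275477 to 75286179 (10703 bp) the densities were 10.7, 11.3 and 12.8 RPM per kb. The 12421 bp domain was 1.32-fold lower with mutant KDM5A than with the empty vector (1.24 to 1.40), whereas the 12741 bp domain was 1.11-fold lower (1.03 to 1.20).

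The domain with the most reads of all was at chromosome 7, 5457539 to 5470144, and was 12606 bp wide. It had 2025 reads with mutant KDM5A, 2450 with wild-type KDM5A and 2992 with the empty vector, or 16.2, 17.9 and 22.2 RPM per kb. Its ratio to the empty vector was 0.732 for mutant KDM5A (0.691 to 0.775) and 0.808 for wild-type KDM5A (0.766 to 0.853). The remaining 2 of the 10 widest lay at chromosome 10, 77154772 to 77165427, with 18.1, 19.5 and 22.2 RPM per kb for mutant KDM5A, wild-type KDM5A and the empty vector, and at chromosome 12, 122234296 to 122244840, with 116, 126 and 155 RPM. All 10 of the widest domains thus had their lowest value with mutant KDM5A and their highest with the empty vector. This order was common, at 78.7% of all broad domains and 66.8% of the regions of 2 to 4 kb.

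The densest domains were narrower than the widest ones. The densest of all lay at chromosome 8, 145156875 to 145161205 (4331 bp), and had 31.0 RPM per kb with mutant KDM5A, 32.6 with wild-type KDM5A and 37.6 with the empty vector. Next came chromosome 6, 20400930 to 20405176 (4247 bp), with 30.3, 33.7 and 36.4 RPM per kb, and chromosome 10, 104401519 to 104406889 (5371 bp), with 30.1, 31.6 and 36.7 RPM per kb. The 10 densest domains were between 4030 and 5371 bp wide, and none of them was among the 10 widest.

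The ratios of the densest domains were not alike. At chromosome 8, 101961687 to 101966790, there were 30.9 RPM per kb with mutant KDM5A, 32.7 with wild-type KDM5A and 33.6 with the empty vector, and its wild-type-to-vector ratio of 0.972 had an interval that includes 1 (0.911 to 1.04). At chromosome 12, 7077398 to 7081709, the densities were 27.6, 27.4 and 33.1 RPM per kb. There both KDM5A libraries lay below the empty vector, at ratios of 0.835 for mutant KDM5A (0.774 to 0.902) and 0.829 for wild-type KDM5A (0.769 to 0.893), and the mutant-to-wild-type ratio was 1.01 (0.930 to 1.09). Chromosome 10, 104179011 to 104183040, had 26.3 RPM per kb with mutant KDM5A, 30.3 with wild-type KDM5A and 33.6 with the empty vector, and a mutant-to-vector ratio of 0.783 (0.723 to 0.849).

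**Figure D2:**
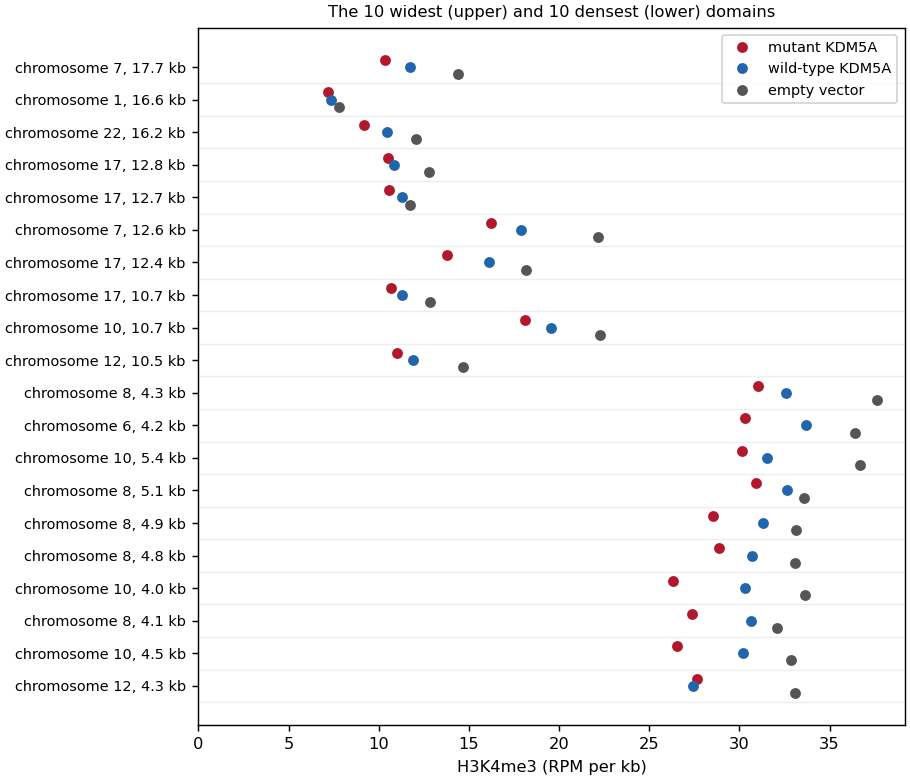
H3K4me3 in RPM per kb (x axis) of the 10 widest domains (upper rows, widest first) and the 10 densest domains (lower rows, densest first), each labelled by chromosome and width. Red points are mutant KDM5A, blue wild-type KDM5A and grey the empty vector; the widest domains run from 7.18 to 22.2 RPM per kb and the densest from 26.3 to 37.6.

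By mean density over the 3 libraries, 47 had under 5 RPM per kb, 142 had 5 to 10, 364 had 10 to 15, 430 had 15 to 20 and 240 had 20 or more. Domains under 5 RPM per kb were thus 3.84% of the broad domains, against 9.22% of the regions of 2 to 4 kb (832 regions). In the class of 5 to 10 RPM per kb the order was the other way, with 11.6% of the broad domains and 6.52% of the regions of 2 to 4 kb. At the other end, 19.6% of the broad domains and 26.7% of the regions of 2 to 4 kb had 20 RPM per kb or more. The least dense domain, at chromosome 12, 50611974 to 50618987, was 7014 bp wide and had 2.27 RPM per kb with mutant KDM5A, 1.88 with wild-type KDM5A and 2.10 with the empty vector.

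Broad domains were spread unevenly over the chromosomes. They made up 7.11% of the listed regions of chromosome 19 (123 domains) and 6.03% of those of chromosome 17 (104 domains), and 2.63% on chromosome 18 (15 domains). Median density of the domains was highest on chromosome 8, at 18.4 RPM per kb, and lowest on chromosome 18, at 12.6 RPM per kb. The regions of 2 to 4 kb were also densest on chromosome 8, at 19.32 RPM per kb, followed by chromosome 17 at 19.26. On chromosome 18 they had 16.5 RPM per kb. Of the 50 densest domains, 13 lay on chromosome 8, which held 47 of the 1223, while 8 lay on chromosome 17, 7 on chromosome 10 and 5 on chromosome 16. The input libraries were not analysed here, so the part of chromosome copy number in these densities was not tested.

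The domains also sat in more crowded surroundings than the narrower class. The median gap to the nearest listed region was 9175 bp for broad domains and 15725 bp for regions of 2 to 4 kb. Another listed region lay within 1 kb of 79 broad domains (6.46%), against 2.89% of the regions of 2 to 4 kb, and within 20 kb of 69.8% of them, against 56.8%. The nearest region was under 2 kb wide for 802 broad domains (65.6%), of 2 to 4 kb for 340 (27.8%) and itself broad for 81 (6.62%). For the regions of 2 to 4 kb these shares were similar, at 63.1%, 32.8% and 4.07%. Among all listed regions the 3 width classes made up 64.3%, 29.3% and 3.97%.

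Some broad domains followed each other closely, in runs. Runs were counted for broad domains only, so whether other listed regions form them as often was not tested. With less than 50 kb between neighbours, 286 domains (23.4%) fell into 122 runs, and 27 of these runs held 3 domains or more. The longest, with 7 domains, spanned 134 kb at chromosome 17, 8020613 to 8154119, and summed to 392 RPM with mutant KDM5A, 424 with wild-type KDM5A and 467 with the empty vector. A run of 4 domains at chromosome 7, 27134087 to 27217397, which includes the widest domain, had 370 RPM with mutant KDM5A, 395 with wild-type KDM5A and 492 with the empty vector. Its summed ratios to the empty vector, 0.753 for mutant and 0.805 for wild-type KDM5A, lay below those of the longest run, 0.840 and 0.908.

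Runs differed in the order of the KDM5A libraries as well. A run of 3 domains at chromosome 19, 59029176 to 59088280, had 243 RPM with mutant KDM5A, 241 with wild-type KDM5A and 300.4 with the empty vector, so that both KDM5A libraries were nearly equal there. At chromosome 17, 17684134 to 17744524, 3 domains had 122 RPM with mutant KDM5A, 132 with wild-type KDM5A and 130.4 with the empty vector. This last run, at a median of 7.78 RPM per kb, was the least dense of the 27 and had a wild-type-to-vector ratio of 1.01.

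Wild-type KDM5A was compared with the empty vector to ask whether putting the demethylase back changes the mark on these domains. Broad domains held 9.32% of the reads of the wild-type KDM5A library (9.30% to 9.34%, Wilson 95% interval) and 10.5% with the empty vector (10.43% to 10.47%). Their summed RPM was 0.891 of that with the empty vector (0.889 to 0.894). The median log2 ratio over the domains, computed on RPM plus 0.7, was −0.16, a median change of −10.4%, and 94.3% of the domains lay below 0, against 87.4% of the regions of 2 to 4 kb and 66.7% of all listed regions. Regions of 2 to 4 kb had a summed ratio of 0.902 (0.901 to 0.903) and a median log2 ratio of −0.14, so that the broad domains differed from them by −0.015 on the log2 scale.

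The domains varied little about that median. The SD of their log2 ratios was 0.12, where counting error, computed from reads without the added 0.7 RPM, gives 0.078. In the regions of 2 to 4 kb the SD was 0.17, with a counting error of 0.12. A domain was counted where RPM plus 0.7 was at least 20% lower or, by the same factor upward, at least 25% higher. At least 20% lower with wild-type KDM5A were 55 domains (4.50%), against 17.0% of all 30840 listed regions and 7.10% of the regions of 2 to 4 kb. At least 25% higher were 2 domains (0.164%), against 14.1% of all listed regions and 1.22% of the regions of 2 to 4 kb. Both shares in the broad domains were below these backgrounds, in which regions carry fewer reads (a median of 4.95 RPM over all listed regions with the empty vector). Past 1.5-fold, 8 domains were lower (0.654%) and 0 were higher, against 6.53% and 6.23% of all listed regions and 1.20% and 0.222% of the regions of 2 to 4 kb.

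How much of this shift appears depends on the scaling. RPM sets each library to the same total, and a lower share of reads in regions gives the same values as less mark at every region, so these cannot be told apart here. When the libraries were instead scaled to a median ratio of 1 over the listed regions with at least the median level, the median wild-type-to-vector log2 ratio over the broad domains was −0.020, with 13 domains at least 20% lower and 13 at least 25% higher. The difference from the regions of 2 to 4 kb was −0.014 under that scaling, close to the −0.015 in RPM. As a share of the reads that fell in listed regions, the broad domains held 15.4% with wild-type KDM5A and 15.6% with the empty vector.

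Mutant KDM5A was compared with the empty vector in the same way, and this comparison shares the empty vector library with the one above. Broad domains held 8.70% of the reads with mutant KDM5A (8.68% to 8.72%), against 10.5% with the empty vector. Their summed RPM was 0.833 of that with the empty vector (0.830 to 0.835), the median log2 ratio was −0.26, a median change of −16.5%, and 97.6% of the domains were below 0, against 94.2% of the regions of 2 to 4 kb and 70.5% of all listed regions. For regions of 2 to 4 kb the summed ratio was 0.846 (0.845 to 0.847) and the median log2 ratio −0.24, a difference of −0.024 between the classes.

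At least 20% lower with mutant KDM5A were 324 domains (26.5%), against 26.4% of all listed regions and 23.9% of the regions of 2 to 4 kb, so that this share was close to both backgrounds. Only 5 domains (0.409%) were at least 25% higher, against 14.1% of all listed regions and 0.986% of the regions of 2 to 4 kb. At 1.5-fold the counts were 11 lower (0.899%) and 0 higher, against 8.15% and 6.61% of all listed regions and 1.97% and 0.222% of the regions of 2 to 4 kb. With the libraries scaled to a median ratio of 1, 13 domains were at least 20% lower and 18 at least 25% higher, and the median log2 ratio was −0.028.

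Mutant against wild-type KDM5A asks whether the forms of the protein left different levels of the mark. The summed RPM of the broad domains with mutant KDM5A was 0.934 of that with wild-type KDM5A (0.931 to 0.937), and the ratio was 0.938 (0.936 to 0.939) in the regions of 2 to 4 kb. The median log2 ratio over the domains was −0.097, with an SD of 0.102 against a counting error of 0.083, and 83.6% of the domains were below 0, against 77.7% of the regions of 2 to 4 kb and 63.7% of all listed regions. Between the width classes the medians differed by −0.0057. At least 20% lower with mutant than with wild-type KDM5A were 16 domains (1.31%), against 16.0% of all listed regions and 4.19% of the regions of 2 to 4 kb. At least 25% higher were 2 domains (0.164%), against 12.0% of all listed regions and 0.642% of the regions of 2 to 4 kb, and no domain was past 1.5-fold in either direction, where 5.45% of all listed regions were lower and 5.19% higher, as were 0.388% and 0.0554% of the regions of 2 to 4 kb. With a median ratio set to 1, the median over the domains was −0.0055, with 2 domains at least 20% lower and 4 at least 25% higher.

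The order of the libraries was the same in most domains. In 962 of the 1223 (78.7%) RPM was lowest with mutant KDM5A and highest with the empty vector, an order held by 66.8% of the regions of 2 to 4 kb. Another 182 domains (14.9%) had wild-type KDM5A lowest and the empty vector highest. The empty vector was lowest in 11 domains that had wild-type KDM5A highest and in 9 that had mutant KDM5A highest. By chromosome, the median log2 ratio of the domains was below 0 on each of the 22 autosomes in all 3 comparisons. The chromosomes share the same 3 libraries, and most domains were below 0 in each comparison, so this is no separate check.

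Width within the class made little difference to the ratios. From domains of 4 to 5 kb to those of 8 kb or more, the median mutant-to-vector log2 ratio was −0.26, −0.25, −0.27 and −0.28. With wild-type KDM5A over the empty vector the medians were −0.15, −0.17, −0.16 and −0.19. Spearman's rho between width and ratio was −0.014 for mutant and −0.022 for wild-type KDM5A over the empty vector.

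The difference between the width classes varied with level. Among broad domains with a mean of 100 RPM or more (224 domains) the median log2 ratio was −0.27 for mutant KDM5A and −0.18 for wild-type KDM5A, each over the empty vector. The 52 regions of 2 to 4 kb at that level had −0.22 and −0.13, so that the classes differed by −0.058 with mutant and −0.042 with wild-type KDM5A. From 50 to 100 RPM, where 808 of the domains lie, the differences between the classes were −0.014 and −0.0104. In domains of 20 to 50 RPM (154 domains) they were −0.0051 with mutant KDM5A and 0.016 with wild-type KDM5A. Under 20 RPM only 37 domains remained, with differences of 0.11 and −0.021.

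Classes of density gave no single order of the width classes either. In the 240 domains of 20 RPM per kb or more the median mutant-to-vector log2 ratio was −0.27, against −0.24 in regions of 2 to 4 kb of that density. In the 142 domains of 5 to 10 RPM per kb it was −0.22, against −0.24. The sign of the difference between width classes was therefore not the same at every density, for mutant KDM5A and also for wild-type KDM5A, where the differences in these classes were −0.016 and 0.014.

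**Figure D3:**
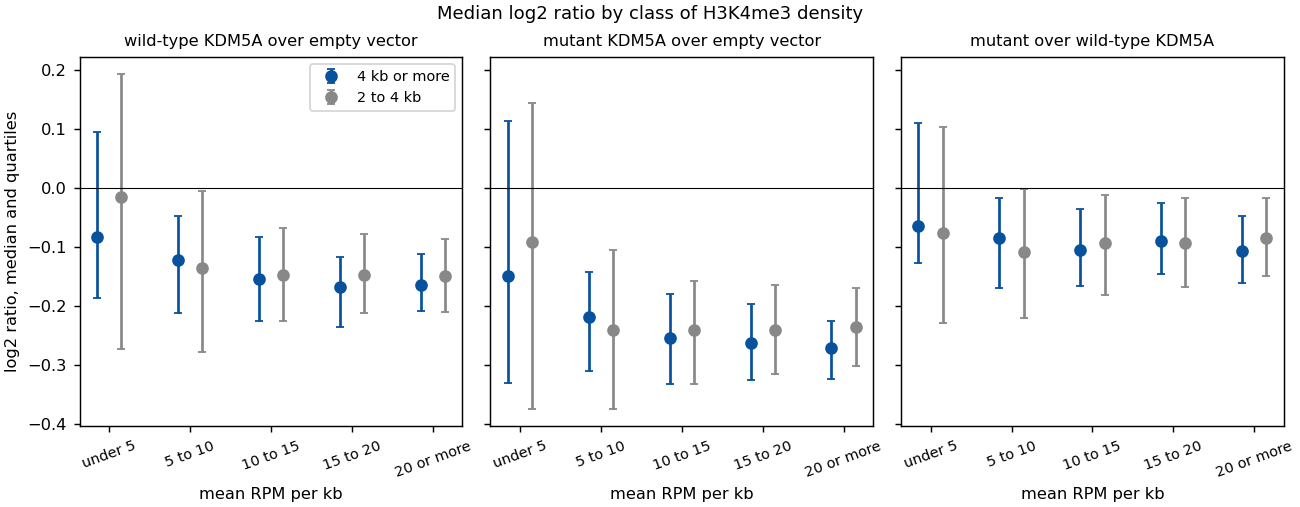
Median log2 ratio (points) with quartiles (bars) by class of mean RPM per kb (x axis), for domains of 4 kb or more (blue) and regions of 2 to 4 kb (grey), in the 3 comparisons. From 10 RPM per kb upward the blue medians of mutant KDM5A over the empty vector lie slightly below the grey ones; below 5 RPM per kb the quartiles are wide.

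The 47 weakest domains, under 5 RPM per kb, had the widest spread of ratios among the density classes. Their wild-type-to-vector log2 ratios had an SD of 0.34, where counting error gives 0.16, and ran from −1.10 to 0.37, with 30 domains below 0 and 17 above. Mutant-to-vector ratios had an SD of 0.37 against a counting error of 0.17, with 29 domains below 0 and 18 above. For mutant against wild-type KDM5A, a comparison that leaves out the empty vector library, the SD was 0.173 against a counting error of 0.170. Regions of 2 to 4 kb under 5 RPM per kb showed the same pattern, with SDs of 0.41 wild-type-to-vector (counting error 0.24), 0.45 mutant-to-vector (0.26) and 0.261 mutant-to-wild-type (0.258). A spread beyond counting error in the comparisons with the empty vector was thus shared by weak regions of both widths, and its source was not tested.

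**Figure D4:**
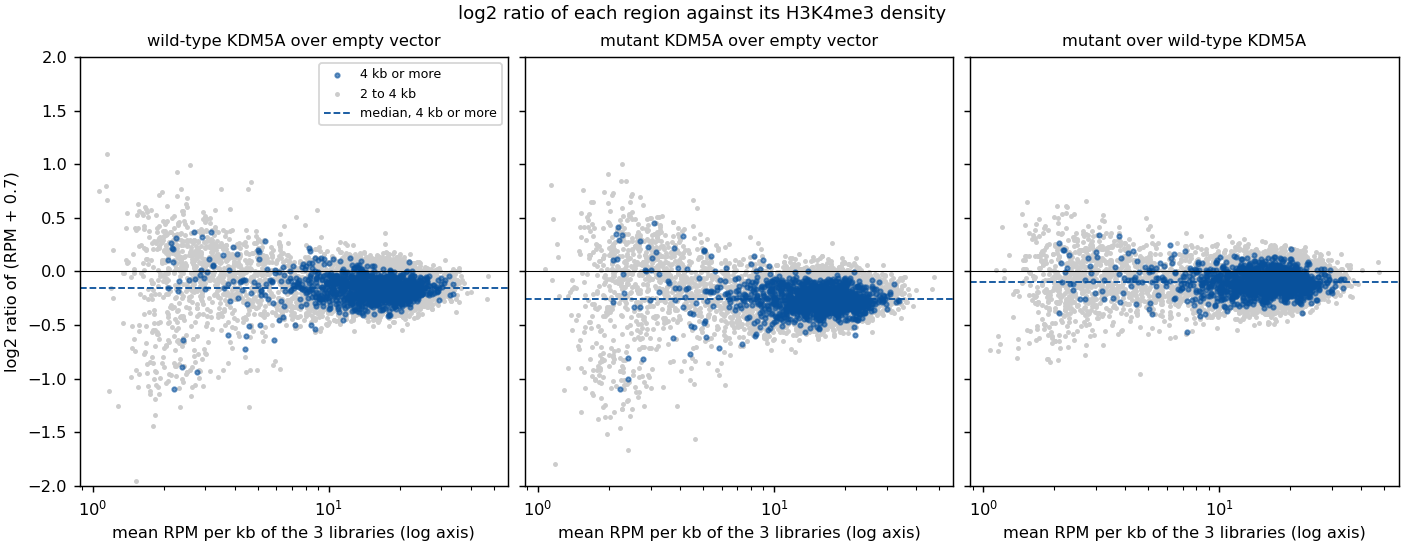
log2 ratio of RPM plus 0.7 (y axis) against mean RPM per kb (x axis, log scale) for each domain of 4 kb or more (blue) and each region of 2 to 4 kb (grey), in the 3 comparisons; the dashed line is the median of the domains. The points of the domains narrow around that line above 10 RPM per kb and scatter more widely below 5 RPM per kb, less so for mutant over wild-type KDM5A.

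The 12 domains that were at least 1.5-fold lower with mutant or wild-type KDM5A than with the empty vector were mostly weak ones. Of these, 11 had under 10 RPM per kb and 7 under 5, and their widths ran from 4014 to 5682 bp. They were picked for their ratios, which the intervals do not allow for, and those outside the 5 lowest of a comparison were chosen after their values were seen. The intervals of all domains named below for their lowest or highest ratios have the same limit. Membership also rests on the RPM scaling, in which 11 domains passed with mutant and 8 with wild-type KDM5A. With the libraries scaled to a median ratio of 1, only 4 and 3 domains were at least 1.5-fold lower. The lowest ratios were those of the domain at chromosome 17, 59474470 to 59478483, with 6.26 RPM (62 reads) for mutant KDM5A, 6.27 RPM (68 reads) for wild-type KDM5A and 14.2 RPM (152 reads) for the empty vector. It was 2.27-fold lower with mutant KDM5A (1.68 to 3.10) and 2.26-fold lower with wild-type KDM5A (1.69 to 3.06) than with the empty vector.

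Another 2 such domains lay on chromosome 17. That at 32905802 to 32910038 had 7.27 RPM with mutant KDM5A, 7.92 with wild-type KDM5A and 15.3 with the empty vector. At 47072789 to 47077310 the values were 10.1, 9.21 and 18.3 RPM. In each the mutant-to-wild-type ratio had an interval that includes 1, with ratios of 0.917 (0.661 to 1.27) and 1.10 (0.822 to 1.46).

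A similar pattern held in 4 further domains. The domain at chromosome 21, 28214161 to 28219231, had 17.8 RPM with mutant KDM5A, 18.4 with wild-type KDM5A and 30.8 with the empty vector. At chromosome 7, 155248823 to 155253505, the values were 22.1, 23.3 and 36.8 RPM, and at chromosome 12, 4380242 to 4385923, they were 10.4, 11.8 and 18.8 RPM. Chromosome 2, 176969136 to 176974186, had 15.8 RPM with mutant KDM5A, 16.1 with wild-type KDM5A and 24.7 with the empty vector. The interval of the mutant-to-wild-type ratio included 1 in all 4, while that of each form to the empty vector lay below 1. The domain at chromosome 16, 4163037 to 4167561, with 18.0, 16.8 and 25.9 RPM, was past 1.5-fold with wild-type KDM5A only. Its ratios to the empty vector were 0.695 for mutant (0.572 to 0.842) and 0.649 for wild-type KDM5A (0.535 to 0.785). The interval of its mutant-to-wild-type ratio, 1.07 (0.866 to 1.32), included 1 as well.

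In other domains mutant KDM5A stood apart from both other libraries. The domain at chromosome 11, 31829968 to 31834661, had 25.0 RPM with mutant KDM5A, 37.4 with wild-type KDM5A and 40.4 with the empty vector. It was 1.49-fold lower with mutant than with wild-type KDM5A (1.27 to 1.76), the lowest such ratio among the broad domains, and its wild-type-to-vector ratio was 0.926 (0.806 to 1.06). The nearest listed region, 3.31 kb away and 1936 bp wide, had 11.2 RPM with mutant KDM5A, 13.2 with wild-type KDM5A and 16.2 with the empty vector.

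Next in that order came chromosome 1, 226309036 to 226313356, with 27.8 RPM for mutant KDM5A, 37.2 for wild-type KDM5A and 42.5 for the empty vector. Chromosome 11, 75917110 to 75922197, followed with 20.3, 27.0 and 31.5 RPM. After it came chromosome 1, 24191341 to 24195481, which had 29.8 RPM with mutant KDM5A, 39.3 with wild-type KDM5A and 39.1 with the empty vector. That at chromosome 6, 143264950 to 143269288, was the only dense one of the 5 lowest, with 18.3, 24.0 and 25.1 RPM per kb, and was 1.32-fold lower with mutant than with wild-type KDM5A (1.20 to 1.44). The densest of the 12 was chromosome 3, 150125296 to 150129751, with 78.9 RPM for mutant KDM5A, 96.8 for wild-type KDM5A and 119 for the empty vector.

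Domains with the highest ratios were weak as well. The domain at chromosome 20, 45944306 to 45949714, had 20.1 RPM with mutant KDM5A, 15.8 with wild-type KDM5A and 14.5 with the empty vector, and was 1.39-fold higher with mutant KDM5A than with the empty vector (1.12 to 1.72). Its mutant-to-wild-type ratio, 1.27 (1.03 to 1.57), was the highest of the broad domains. At chromosome 20, 49377373 to 49381961, the values were 12.9 RPM with mutant KDM5A, 13.7 with wild-type KDM5A and 10.5 with the empty vector, a wild-type-to-vector ratio of 1.31 (1.02 to 1.69). Chromosome 15, 67331733 to 67335801, had 12.8, 14.7 and 11.2 RPM, and the same ratio was 1.31 (1.03 to 1.67).

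For 3 more domains among the highest mutant-to-vector ratios the reads were few. Chromosome 3, 196063069 to 196067155, had 102 reads with mutant KDM5A, 96 with wild-type KDM5A and 81 with the empty vector, a mutant-to-vector ratio of 1.36 (1.01 to 1.85). At chromosome 10, 101541559 to 101545705, the reads were 97, 100 and 81, with a ratio of 1.30 (0.954 to 1.76). Chromosome 8, 128811647 to 128815664, had 98, 105 and 82 reads and a ratio of 1.29 (0.954 to 1.75). The intervals of the last 2 include 1. That of the first excludes 1. All 3 lie above 0.833, the summed mutant-to-vector ratio of the broad domains, but none allows for the choice of the domain by its ratio.

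Among the 5 highest mutant-to-wild-type ratios, the domain at chromosome 2, 62113385 to 62117427, had 20.6 RPM per kb with mutant KDM5A, 17.8 with wild-type KDM5A and 21.7 with the empty vector. It was the only dense one of these, with a ratio of 1.16 (1.05 to 1.28). At chromosome 5, 82268226 to 82272427, the values were 25.9 RPM with mutant KDM5A, 21.7 with wild-type KDM5A and 30.1 with the empty vector. Its mutant-to-wild-type ratio, 1.19 (0.996 to 1.43), had an interval that includes 1. So did that of the least dense domain, at chromosome 12, 50611974 to 50618987, with 1.21 (0.959 to 1.53). Chromosome 12, 53763546 to 53767586, had 17.3, 13.5 and 14.7 RPM, a mutant-to-wild-type ratio of 1.27 (1.02 to 1.60).

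**Figure D5:**
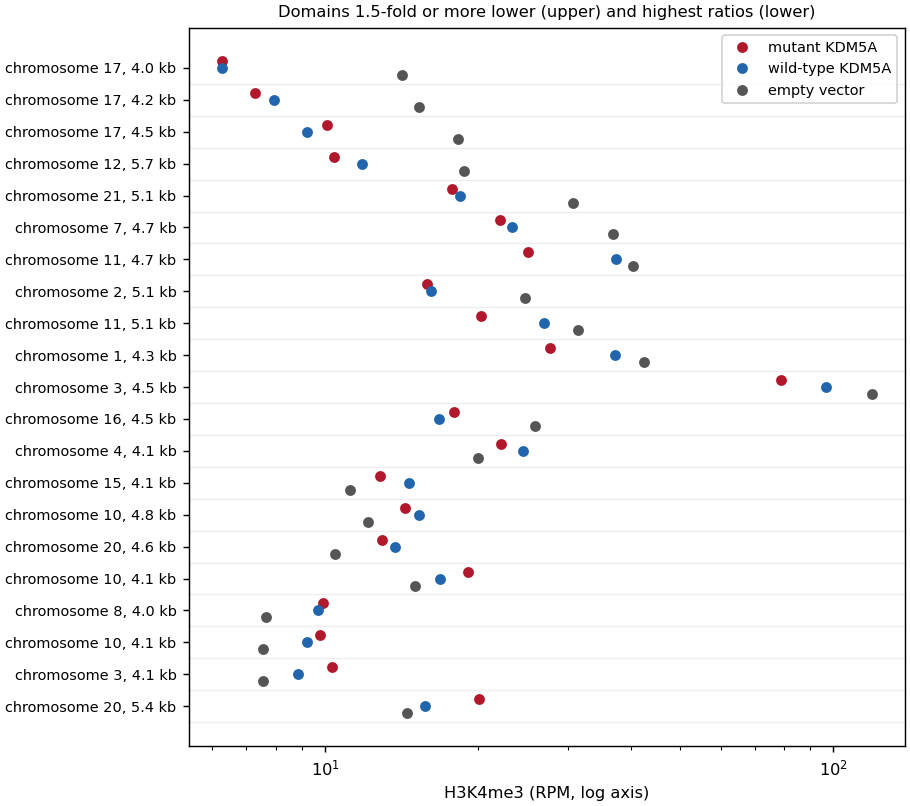
RPM on a log axis (x) for the 12 domains at least 1.5-fold lower with mutant or wild-type KDM5A than with the empty vector (upper rows, lowest ratio of mutant KDM5A first) and for the 9 domains with the 5 highest ratios of either form (lower rows), labelled by chromosome and width. Red is mutant KDM5A, blue wild-type KDM5A and grey the empty vector, which lies right of the other points in the upper rows and left of them in the lower rows.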

How the data were processed

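H3K4me3 ChIP-seq of HCT116 KDM5A-/- cells, sheared to about 250 to 750 bp, gave 1 library each for mutant KDM5A, wild-type KDM5A and empty vector. The deposited table gives RPM for 30840 hg19 regions, scaled by the authors to each library's total. The submitters' processing notes name deepTools 3.5.6, HOMER, MACS, MACS2 and Bowtie2 2.5.4 without their roles, and how regions were called, merged and given their widths is not stated. For the empty vector the column header reads H3K4me4, taken here as a slip for H3K4me3. The 3 input libraries and the IgG library were not analysed here.

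RPM values came in whole steps (within 0.02 reads), which gave the reads per region and the library totals. Ratios are log2 of RPM plus 0.7, counted where at least 20% lower or 25% higher, and past 1.5-fold. Ratios of single domains and of sums come from reads, with exact conditional (Clopper-Pearson) 95% intervals; shares have Wilson intervals. With 1 library per group no test was made. Python 3.11.15, pandas 2.3.3 and scipy 1.17.1 were used, and the scripts were tested on simulated data. The named domains come from the 10 widest, the 10 densest, the 5 least dense and the 5 lowest and 5 highest ratios per comparison. The choice also held 3 regions on either side of the width limit, and not every member of these sets is printed. The further domains past 1.5-fold and the runs were added after values were seen. The members, classes and thresholds were chosen with earlier results of these data known. The gene table used here is of another build, GRCh38.p14, and no hg19 annotation was used, so the planned gene lists, cell type markers and promoter sequences were not analysed. Alternatives were 2 pseudocounts, 2 scalings, 2 width limits, joined regions, a level filter and inclusion of chromosome X.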

Additional observations from a re-analysis of the deposited data

How the results depend on the processing

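Of 177 values recomputed under 9 alternatives, 108 stayed close to the reported value and 69 moved. A turn of direction could show only in the median log2 ratios and their differences between width classes, where none occurred. The balance of domains at least 20% lower and at least 25% higher did change with the scaling to a median ratio of 1. For mutant KDM5A over the empty vector, 324 lower and 5 higher became 13 and 18. Between the forms, 16 and 2 became 2 and 4. No paired analysis was possible because each group had 1 library, and for the same reason no library could be left out. Scaling to a median ratio of 1 gave medians of −0.028 for mutant KDM5A over the empty vector, −0.020 for wild-type KDM5A over the empty vector and −0.0055 for mutant over wild-type KDM5A, with 13 domains lower and 18 higher, 13 lower and 13 higher, and 2 lower and 4 higher past the smaller threshold (20% lower or 25% higher). Past 1.5-fold it left 4 lower and 2 higher for mutant KDM5A and 3 lower for wild-type KDM5A. Scaling to equal sums over the regions gave medians of −0.027, −0.018 and −0.0058 in the same order and the same counts. A pseudocount of 3.5 RPM gave medians of −0.25 and −0.15 against the empty vector, 1 and 0 domains higher past the smaller threshold, and 7 and 5 lower past 1.5-fold; for mutant over wild-type KDM5A it left 8 lower and 0 higher past the smaller threshold. A pseudocount of 0.07 RPM gave 4 domains higher with wild-type KDM5A. A limit of 3000 bp took in 3957 regions with a density of 17.2 RPM per kb and 25.6% of the reads. Their medians were −0.25 and −0.15 against the empty vector, and the difference from narrower regions was −0.015 for mutant KDM5A. Past the smaller threshold, 973 were lower and 16 higher with mutant KDM5A, 220 and 17 with wild-type KDM5A, and 90 and 8 between the forms. Past 1.5-fold the counts were 49 and 1, 34 and 3, and 3 lower between the forms. A limit of 5000 bp left 444 domains with 13.97 RPM per kb and 3.94% of the reads; past the smaller threshold, 120 were lower and 1 higher with mutant KDM5A, 20 and 0 with wild-type KDM5A, and 1 and 1 between the forms, with 4 and 3 lower past 1.5-fold. A mean of 20 RPM or more left 0 domains higher past the smaller threshold in each comparison, 6 and 3 lower past 1.5-fold, and 9.46% of the reads. Joining regions under 500 bp apart gave 9.57% and including chromosome X 9.65%, against 9.51% over the 3 libraries. Depth limits the weakest domains, where intervals of single ratios are widest.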
